A study of Mus musculus with 19 samples.

Results

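Transferrin, the plasma iron carrier encoded by Trf, and 9 further genes of cellular iron handling were followed across sorted alveolar type II (AT2) cells and lung tissue of mice labelled Etv5KO and of control mice. The set was made up by gene symbol and comprises Trf, Ltf, Lcn2, Tfrc, Steap2, Steap3, Slc11a2, Fth1, Ftl1 and Slc40a1. All 10 were present among the 36528 gene IDs of the tables. The set was selected on measured values, the lower count of Trf in Etv5KO AT2 cells, so values of the comparison of Etv5KO with control AT2 cells are given as a description, without a test.

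Polyadenylated RNA was sequenced from 5 AT2 Etv5KO, 4 AT2 control, 5 lung Etv5KO and 5 lung control libraries. The labels name 5 mice per genotype, but only 4 of the 19 libraries are of AT2 control. All 19 were analysed. Etv5KO mice carried SpcCreERT2, RosatdTomato and the Etv5 genotype ko/loxp, 1 knockout and 1 loxP-flanked allele. Control mice carried SpcCreERT2 and RosatdTomato without an Etv5 allele named. Tamoxifen was given to all mice at 100 mg/kg over 5 days, with a further 5 days before collection. The sort for AT2 cells took EpCAM+, tdTomato+, CD45- and CD31- cells. SpcCreERT2 is a tamoxifen-inducible Cre named for the surfactant protein C (Spc) gene, which is active in AT2 cells. Lung tissue also holds cells without that activity. By the genotype, such cells of Etv5KO mice would still carry the knockout allele, which is not named for control mice. The lung comparison holds this difference too. The labels give no age.

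Libraries held 17426415 to 26722625 counts in AT2 Etv5KO, 20279607 to 28671262 in AT2 control, 20332410 to 22478603 in lung Etv5KO and 14971793 to 26989453 in lung control. Counts of Etv5 itself did not fall with the Etv5KO label. They averaged 713 ± 58.4 CPM in AT2 Etv5KO and 667 ± 36.1 CPM in AT2 control libraries (SD, n = 5 and 4), and 113 ± 10.8 CPM in lung Etv5KO and 103 ± 7.20 CPM in lung control libraries (SD, n = 5 each). A total per gene cannot check a deletion of part of it. Directions below are therefore those of the libraries labelled Etv5KO. CPM here is the count scaled to library size by TMM over all 19 libraries. All 10 markers of the AT2 list were higher in AT2 control than in lung control libraries.

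Iron circulates bound to transferrin. Cells take it up by endocytosis through the transferrin receptor, reduce it in the endosome with STEAP enzymes, pass it to the cytosol through the divalent metal transporter encoded by Slc11a2, store it in ferritin and release it through ferroportin, encoded by Slc40a1. Lactotransferrin (Ltf) and lipocalin 2 (Lcn2) are secreted defence proteins that withhold iron from microbes, Ltf by binding iron itself and Lcn2 by binding bacterial siderophores. The alveolar surface is exposed to inhaled oxygen and metal, and AT2 cells secrete proteins as well as lipid into its lining fluid.

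The mRNAs of ferritin and of the transferrin receptor are controlled after transcription through the iron-responsive element, a hairpin that iron regulatory proteins bind when iron is scarce. Binding before the coding sequence blocks translation, and binding after it stabilises the message. The elements of Fth1, Ftl1 and Tfrc are shown because RNA level reads only the second kind of control. They were found in the GENCODE M21 transcripts of build GRCm38 as a loop of CAGTG followed by A, C or T, over a stem of 5 base pairs (G with T allowed) and a C placed before the stem, read on the transcript strand, with the loop in capitals. Fth1 (chromosome 19) and Ftl1 (chromosome 7) each held 1 before the coding sequence, and Tfrc (chromosome 16) held 4 after it. The same pattern occurred anywhere in a transcript of 222 of 21901 protein-coding genes (1.01%). The other members were not looked up singly, so nothing is said here of whether they hold an element.
Fth1 element: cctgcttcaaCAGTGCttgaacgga
Ftl1 element: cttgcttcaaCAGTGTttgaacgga
Tfrc element 1: ttatcggaagCAGTGCcttccataa
Tfrc element 2: ttatcgggagCAGTGTcttccataa
Tfrc element 3: atatcggagaCAGTGAtctccatat
Tfrc element 4: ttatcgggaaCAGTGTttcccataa

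Among the secreted carriers, Trf differed most between Etv5KO and control AT2 cells. It stood at 60.9, 55.6, 44.2, 75.0 and 49.5 CPM in the 5 AT2 Etv5KO libraries, against 856, 596, 884 and 696 CPM in the 4 AT2 control libraries. The highest Etv5KO library lay far under the lowest control library. The fold change was 13.2-fold lower in Etv5KO AT2 cells, -3.73 on the log2 scale with an SE of 0.17.

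Lung tissue gave a much smaller difference. Trf stood at 378, 378, 326, 373 and 390 CPM in lung Etv5KO libraries, against 391, 429, 451, 490 and 446 CPM in lung control libraries. The groups touched without overlapping, and the log2 fold change of -0.26 (SE 0.08) did not pass the test over all genes (edgeR adjusted p = 0.307), though it did with DESeq2 (adjusted p = 0.0325; range over the alternatives 0.0325 to 0.925). In lung tissue, fewer cells of a type and less RNA per cell cannot be told apart. The effect in AT2 cells minus that in lung was -3.47 on the log2 scale (SE 0.18).

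Trf was a member whose place between the tissues turned with genotype. In control mice it was higher in AT2 cells than in lung, at 758 ± 136 CPM against 441 ± 36.0 CPM (SD, n = 4 and 5), a log2 difference of 0.78 (SE 0.12). In Etv5KO mice it was lower in AT2 cells than in lung, at 57.0 ± 11.9 CPM against 369 ± 24.6 CPM (SD, n = 5 each), a log2 difference of -2.68 (SE 0.13). The order of the 4 groups from high to low was AT2 control, lung control, lung Etv5KO and AT2 Etv5KO, with every neighbouring pair apart. Both tissue differences hold AT2 libraries of the comparison that chose Trf and are given as a description.

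Lcn2 was the other carrier that was lower in Etv5KO libraries, and it was lower in both sample types. It stood at 321, 174, 258, 247 and 245 CPM in AT2 Etv5KO libraries, against 843, 1437, 877 and 601 CPM in AT2 control libraries. The fold change was 3.76-fold lower in Etv5KO AT2 cells, -1.91 on the log2 scale with an SE of 0.23, and the groups did not overlap. The control libraries spread widely, with library 2 well above the other 3. When single libraries were left out, the log2 fold change ran from -2.07 to -1.63, the latter without AT2 control library 2.

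In lung, Lcn2 fell in Etv5KO libraries. It stood at 33.8, 45.4, 34.1, 45.7 and 45.0 CPM in lung Etv5KO libraries, against 175, 92.5, 72.2, 104 and 71.3 CPM in lung control libraries. All Etv5KO libraries lay under all controls, and the log2 fold change was -1.34 (SE 0.23, edgeR adjusted p = 0.0237, lower in 5 of 5 libraries). The call was lost without lung Etv5KO library 1, 2, 3 or 5 or lung control library 2 or 4, with adjusted p up to 0.0702, while the log2 fold change stayed between -1.44 and -1.07. The effect in AT2 cells minus that in lung was -0.58 (SE 0.34).

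Neutrophils also hold Lcn2 and Ltf, so the summed level of 10 neutrophil markers was read beside them. In sorted AT2 cells the sum was 4.86 to 23.8 CPM in Etv5KO and 9.43 to 18.4 CPM in control libraries. None of the 6 markers tested in AT2 cells passed, beside 9.87% of 14939 genes, and their median log2 fold change was 0.09. The part of neutrophils in the AT2 values was not tested. In lung the sum was 122 to 506 CPM in Etv5KO and 303 to 574 CPM in control libraries. None of the 8 markers tested there passed, beside 0.415% of 17098 genes, and their median log2 fold change was -0.22. With so few genes passing in lung, this does not show an unchanged level. The part of neutrophils in the lung result was not tested. AT2 markers, summed over 10 genes, stood at 18881 to 26382 CPM in lung Etv5KO and 21428 to 27979 CPM in lung control libraries. Of the 10, 1 fell, beside the same 0.415% of genes, and their median log2 fold change was -0.18. Their part was not tested either.

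Ltf, the third carrier, was near the lower limit of the data. It stood at 2.17, 1.21, 3.47, 2.76 and 1.55 CPM in AT2 Etv5KO libraries, against 1.47, 0.632, 2.03 and 0.712 CPM in AT2 control libraries, with overlap. In lung it lay between 2.59 and 7.09 CPM in Etv5KO and 2.85 and 6.13 CPM in control libraries (log2 fold change 0.13, SE 0.27, edgeR adjusted p = 0.985). Only 12 to 82 counts per AT2 library stand behind it.

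Steap2, an endosomal metalloreductase, was higher in Etv5KO libraries of both sample types, with no overlap between the groups in either. It stood at 154, 137, 168, 178 and 145 CPM in AT2 Etv5KO libraries, against 73.8, 77.4, 86.1 and 125 CPM in AT2 control libraries. The log2 fold change was 0.79 (SE 0.15), 1.73-fold higher in Etv5KO. In lung it stood at 30.7, 38.1, 24.0, 30.5 and 32.2 CPM in Etv5KO libraries, against 15.4, 17.0, 20.5, 16.4 and 22.2 CPM in control libraries. There it rose, with a log2 fold change of 0.76 (SE 0.13, edgeR adjusted p = 0.0275, higher in 5 of 5 libraries). The call was lost without lung Etv5KO library 1, 2, 4 or 5 or lung control library 2 or 4, with adjusted p up to 0.0939 and a log2 fold change that stayed between 0.67 and 0.85. The effects in AT2 cells and lung differed by 0.02 on the log2 scale (SE 0.21).

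**Figure D1:**
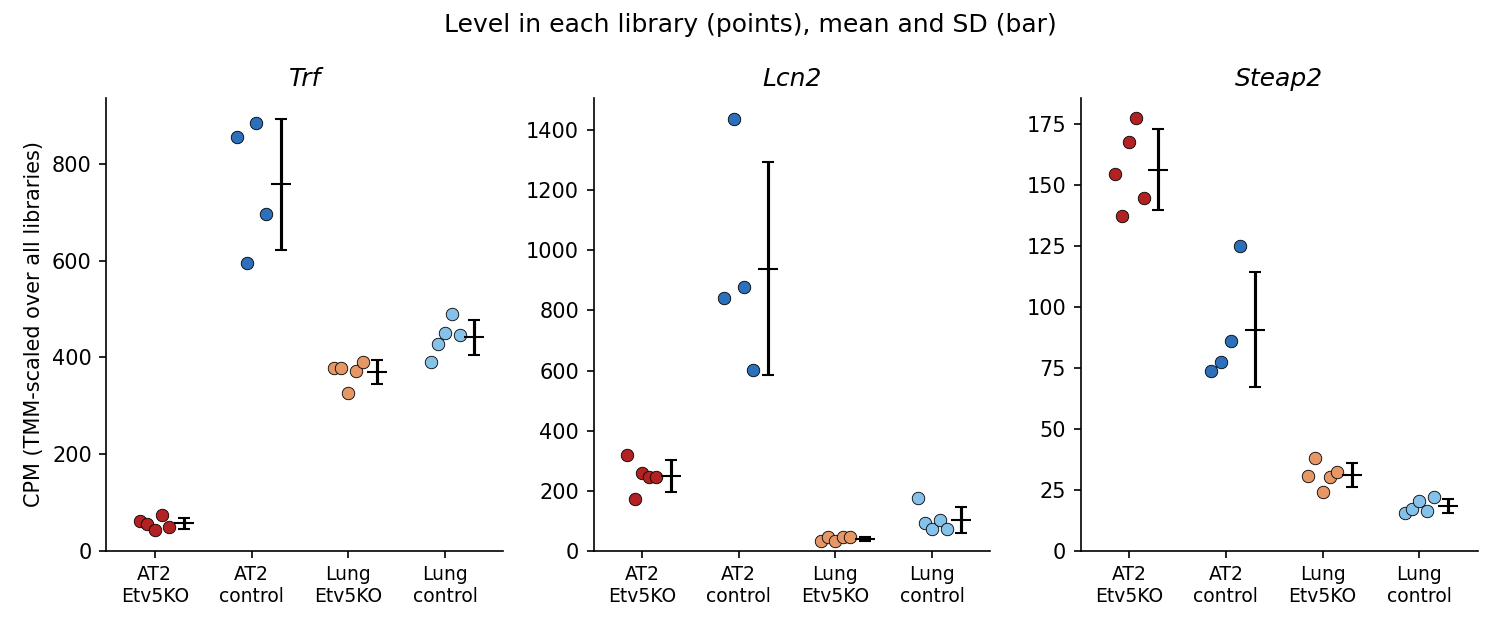
CPM (vertical axis, linear from 0) of Trf, Lcn2 and Steap2 in each library, with 5, 4, 5 and 5 points for the 4 groups and the mean and SD as a bar. Trf is lowest in AT2 Etv5KO (57.0 CPM on average), while Lcn2 is lower and Steap2 higher in Etv5KO libraries of both AT2 cells and lung.

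Steap3, the STEAP enzyme known for endosomal iron reduction in red cell precursors, was low in AT2 cells and higher in lung. It lay between 1.44 and 3.66 CPM in AT2 Etv5KO and 1.95 and 3.26 CPM in AT2 control libraries (log2 fold change 0.06, SE 0.25). In lung it lay between 17.6 and 34.5 CPM in Etv5KO and 20.5 and 28.3 CPM in control libraries (log2 fold change 0.16, SE 0.17, edgeR adjusted p = 0.979). The Etv5KO ranges enclosed the control ranges in both.

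Tfrc, the transferrin receptor, was a little higher on average in Etv5KO libraries, and did not pass the test in lung. It stood at 531, 567, 535, 613 and 684 CPM in AT2 Etv5KO libraries, against 530, 524, 486 and 473 CPM in AT2 control libraries. The groups met at their edges without overlapping, and the log2 fold change was 0.23 (SE 0.09). In lung it lay between 83.7 and 113 CPM in Etv5KO and 72.7 and 104 CPM in control libraries (log2 fold change 0.19, SE 0.12, edgeR adjusted p = 0.979). This is the message that carries the 4 hairpins printed above.

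Slc11a2, the endosomal iron transporter, had nearly the same range in Etv5KO and control libraries. It lay between 77.4 and 86.7 CPM in AT2 Etv5KO and 77.4 and 84.4 CPM in AT2 control libraries, a log2 fold change of 0.02 (SE 0.06). In lung it lay between 37.7 and 45.4 CPM in Etv5KO and 37.3 and 45.6 CPM in control libraries (log2 fold change -0.05, SE 0.07, edgeR adjusted p = 0.979).

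The ferritin subunits, the iron stores, showed no difference beyond the spread of their libraries. Fth1, the heavy chain with ferroxidase activity, averaged 1276 ± 180 CPM in AT2 Etv5KO and 1248 ± 188 CPM in AT2 control libraries (SD, n = 5 and 4; log2 fold change 0.04, SE 0.13). Ftl1, the light chain, averaged 57.5 ± 7.51 CPM in AT2 Etv5KO and 60.6 ± 4.56 CPM in AT2 control libraries (SD, n = 5 and 4; log2 fold change -0.07, SE 0.10). In lung the log2 fold changes were -0.01 (SE 0.07, edgeR adjusted p = 0.993) for Fth1 and -0.12 (SE 0.07, edgeR adjusted p = 0.979) for Ftl1. Ferritin genes have processed copies in the genome, and only uniquely aligned reads were counted, so both levels are uncertain. Each of the 8 other symbols starting with Fth or Ftl held at most 13 counts over all libraries. Copies under other names were not searched, and reads shared between copies were not counted. These low counts therefore do not measure what the copies draw.

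Slc40a1, the iron exporter ferroportin, was near 0 in the sorted cells. It lay between 0.403 and 0.980 CPM in AT2 Etv5KO and 0.237 and 0.543 CPM in AT2 control libraries, 4 to 19 counts per library, and did not pass the filter on low counts there. In lung it averaged 22.0 ± 1.54 CPM in Etv5KO and 21.9 ± 2.56 CPM in control libraries (SD, n = 5 each; log2 fold change -0.00, SE 0.08, edgeR adjusted p = 0.999). Macrophages express ferroportin strongly, and 10 macrophage markers summed to 54.4 to 62.6 CPM in AT2 Etv5KO and 40.9 to 74.5 CPM in AT2 control libraries, and to 717 to 1029 CPM in lung Etv5KO and 768 to 1237 CPM in lung control libraries. Their part was not tested.

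**Figure D2:**
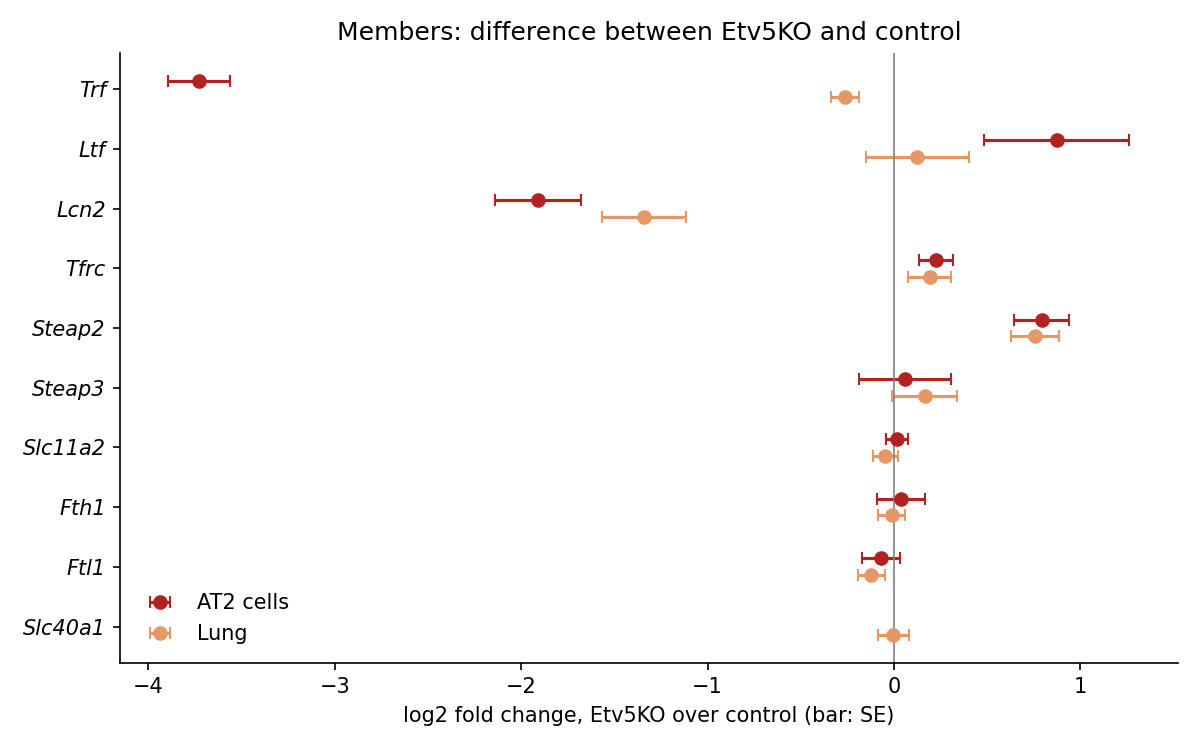
Log2 fold change of Etv5KO over control (horizontal axis, bar: SE) for each member in AT2 cells and in lung, with Slc40a1 in lung alone because it did not pass the filter in AT2 cells. Trf in AT2 cells stands at -3.73, Lcn2 lies under 0 and Steap2 above 0 in both, and Ltf has the widest error.

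Of the 10 members, 9 passed the filter on low counts in AT2 cells. There 9.87% of the 14939 genes tested had an edgeR adjusted p under 0.05 (751 higher and 723 lower, or 894 and 482 with scaling by library size alone). In 12.4% of genes the groups did not overlap. This comparison chose the set, so no count of members is set against these shares. In lung 10 members were tested, 1 rose and 1 fell, beside 0.415% of 17098 genes, and 3 had no overlap, beside 1.52% of genes. The interaction called 1.59% of 17698 genes. It holds the same AT2 libraries, so members are not counted there either. The median log2 fold change of the members was 0.04 in AT2 cells and -0.01 in lung, beside -0.01 for all genes tested in each.

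Between tissues most members differed, as most genes did. The comparison of control mice shares its AT2 libraries with the one that chose the set. Of 10 members, 6 were higher and 3 lower in AT2 control than in lung control libraries, beside 74.5% of all genes called. In Etv5KO mice 5 were higher and 4 lower in AT2 cells, beside 78.0% of genes. Nothing particular to the members is read from these counts. Scaling by library size alone moved the median of all genes by -0.41 and -0.37 on the log2 scale in these comparisons and leaving out the filter by -0.15 and -0.18. In control mice 6092 genes were higher and 6662 lower in AT2 cells, or 3318 and 9484 under library size alone. In Etv5KO mice 6417 were higher and 6646 lower, or 3579 and 9341 under library size alone.

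Of the members that serve uptake, Tfrc, Steap2 and Slc11a2 were higher in AT2 cells and Steap3 was lower. Of 11 further uptake genes tested, 5 were higher and 5 lower in AT2 control than in lung control libraries, beside 74.5% of all genes called. Tfrc averaged 503 ± 28.0 CPM in AT2 control and 82.8 ± 13.5 CPM in lung control libraries (SD, n = 4 and 5; log2 difference 2.60, SE 0.11, edgeR adjusted p = 1.17e-09). Steap2 averaged 90.6 ± 23.5 CPM in AT2 control and 18.3 ± 2.88 CPM in lung control libraries (SD, n = 4 and 5; log2 difference 2.31, SE 0.16, edgeR adjusted p = 8.46e-08). Slc11a2 was 0.93 higher on the log2 scale (SE 0.07, edgeR adjusted p = 1.69e-07). The log2 differences in Etv5KO mice were 2.64, 2.35 and 1.00 for Tfrc, Steap2 and Slc11a2.

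Lcn2 was also an AT2-rich message, at 939 ± 354 CPM in AT2 control and 103 ± 42.7 CPM in lung control libraries (SD, n = 4 and 5; log2 difference 3.19, SE 0.30, edgeR adjusted p = 1.33e-06). Among Etv5KO mice the difference was 2.63 (SE 0.15). Ftl1 was 0.71 higher in AT2 control than in lung control libraries (SE 0.08, edgeR adjusted p = 9.82e-06). Fth1 was at 0.08 (SE 0.11, edgeR adjusted p = 0.517), and turned to -0.33, past the threshold, with scaling by library size alone (adjusted p = 0.0062). In Etv5KO mice it was at 0.14 (SE 0.10, edgeR adjusted p = 0.233), turned to -0.23 with scaling by library size alone (adjusted p = 0.026), and passed at 0.21 without AT2 Etv5KO library 2 (adjusted p = 0.0396). No direction is given for Fth1 between the tissues.

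The members lower in AT2 cells were the exporter, Steap3 and Ltf. Slc40a1 averaged 0.368 ± 0.132 CPM in AT2 control and 21.9 ± 2.56 CPM in lung control libraries (SD, n = 4 and 5), 58.7-fold lower in AT2 cells (log2 difference -5.88, SE 0.19, edgeR adjusted p = 1.49e-10). Steap3 was 9.61-fold lower (log2 difference -3.26, SE 0.16, edgeR adjusted p = 2.62e-09), and Ltf 3.54-fold lower (log2 difference -1.82, SE 0.35, edgeR adjusted p = 4.84e-04). Neutrophil and red cell marker lists were also lower in AT2 libraries, with 8 of 8 and 7 of 7 tested markers lower in AT2 control than in lung control libraries. So were 10 of 10 macrophage, 8 of 8 endothelial and 8 of 8 mesenchymal markers, beside 6662 of all 17118 genes. AT1 markers were 6 lower and 2 higher of 8, airway secretory markers 3 lower and 3 higher of 7, and all 10 AT2 markers were higher. The part of these cells in the member differences was not tested.

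To compare levels between genes, the deposited RPKM values, which account for transcript length, were read. The uncertainty of the ferritin levels given above holds for these values too. Fth1 was the most abundant member in Etv5KO AT2 cells and in lung, at 805 ± 114 RPKM in AT2 Etv5KO, 776 ± 115 in AT2 control, 754 ± 36.0 in lung Etv5KO and 755 ± 44.4 in lung control libraries (SD, n = 5, 4, 5 and 5). Lcn2 held rank 145 among all genes in AT2 Etv5KO libraries, at 278 ± 57.1 RPKM (SD, n = 5), and rank 29 in AT2 control libraries, where its mean of 1035 ± 392 RPKM (SD, n = 4) exceeded that of Fth1. Trf held rank 2810 in AT2 Etv5KO libraries at 23.3 ± 4.98 RPKM and rank 133 in AT2 control libraries at 305 ± 54.5 RPKM (SD, n = 5 and 4). In AT2 Etv5KO libraries Trf therefore lay under its receptor Tfrc (108 ± 12.1 RPKM, n = 5), while in AT2 control libraries it lay over it (91.2 ± 5.74 RPKM, n = 4).

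**Figure D3:**
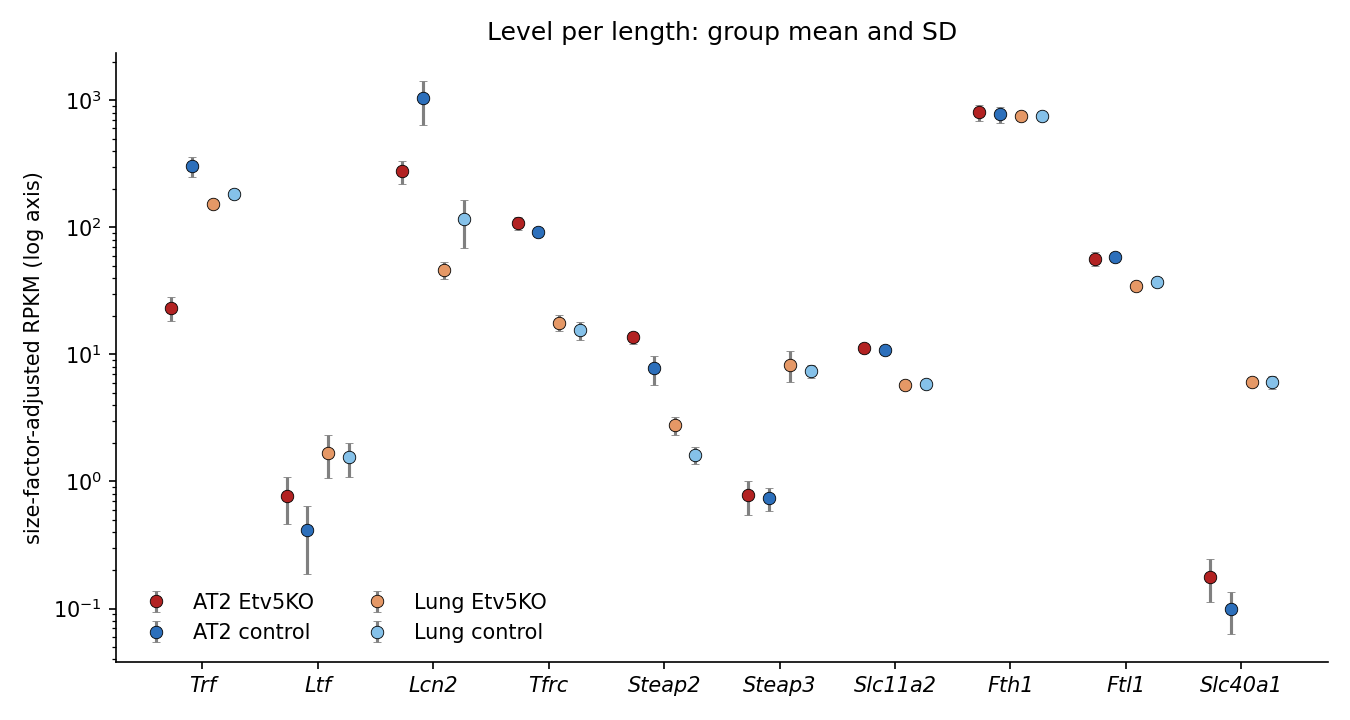
Size-factor-adjusted RPKM (logarithmic axis) of each member as group mean and SD over 5, 4, 5 and 5 libraries. Fth1 is at 754 to 805 in all 4 groups, Trf is lowest in AT2 Etv5KO, and Slc40a1 is far lower in AT2 cells than in lung.

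Genes with the pattern most like that of Trf over the 19 libraries were Rbp4 (plasma retinol carrier), Adamts1 (a secreted metalloprotease), Gdpd2, Ppp1r3c (a glycogen-targeting phosphatase subunit) and Acacb (an acetyl-CoA carboxylase). Likeness was the Euclidean distance of centred log2(CPM + 1) among 13117 genes, and the distances were 2.15, 2.38, 2.76, 2.84 and 3.34. Rbp4 averaged 2.05 CPM in AT2 Etv5KO, 36.0 CPM in AT2 control, 10.7 CPM in lung Etv5KO and 11.3 CPM in lung control libraries. The genes closest to Lcn2 were Elovl1 (a fatty acid elongase), Acot7 (an acyl-CoA thioesterase) and Lrg1 (a secreted glycoprotein), at distances of 1.80, 1.81 and 1.85. Elovl1 averaged 641 CPM in AT2 Etv5KO, 2806 CPM in AT2 control, 162 CPM in lung Etv5KO and 375 CPM in lung control libraries. All these distances hold the AT2 libraries of the comparison that chose the set, so likeness is given as a description. The nearest genes to Trf on its chromosome that passed the filter, Rab6b, Srprb, Topbp1 and Cdv3, were not called in AT2 cells.

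Lcn2 and Steap2 were the members called in lung, and the windows upstream of their starts are shown because Etv5 belongs to the ETS factors, which bind a GGAA core. RefSeq lists them on build GRCm38.p6 at chr2:32387740-32387989 on the minus strand for Lcn2 and chr5:5694569-5694818 on the minus strand for the farthest upstream of 3 Steap2 starts, with GGAA and its reverse complement TTCC in capitals. Lcn2 held 4 TTCC and no GGAA, and Steap2 held 1 GGAA and 1 TTCC. At least 1 such match on either strand occurred in 93.4% of 27025 windows of this length, with a median of 3, and the longer CCGGAAGT was in 2.93% of windows and in neither of these. Among the members 7 were matched to an upstream window. Trf, Slc11a2 and Slc40a1 were not, so no window could be read for them. A match is a description of letters and not a bound site.
Lcn2 upstream window: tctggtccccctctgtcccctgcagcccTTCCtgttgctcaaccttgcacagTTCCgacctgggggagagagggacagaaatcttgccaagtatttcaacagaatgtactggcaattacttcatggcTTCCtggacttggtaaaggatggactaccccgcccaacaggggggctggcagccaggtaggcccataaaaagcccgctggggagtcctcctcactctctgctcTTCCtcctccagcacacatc
Steap2 upstream window: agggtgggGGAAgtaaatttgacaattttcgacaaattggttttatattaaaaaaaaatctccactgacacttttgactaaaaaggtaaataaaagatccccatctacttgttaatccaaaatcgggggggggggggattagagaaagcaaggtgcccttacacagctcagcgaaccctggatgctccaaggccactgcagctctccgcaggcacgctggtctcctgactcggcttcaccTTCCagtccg

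Of the wider iron list, 77 further genes of the pathway, 68 were tested in AT2 cells and 11 changed (6 rose, 5 fell), which is 16.2% beside 9.87% of all genes. With scaling by library size alone 7 were higher and 3 lower, and DESeq2 called 13. Their median log2 fold change was -0.01, the same as over all genes. In lung 70 were tested and none passed in the edgeR fit of the lung libraries or in limma-voom, and 6 had an unadjusted p under 0.05. DESeq2 called 2, Alad and Cybrd1, edgeR over all libraries in one fit called 1, Alad, and edgeR without lung control library 2 called 1. The list was drawn up with earlier results of these data known.

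Among uptake genes, 2 rose and 2 fell of 10 tested in AT2 cells, beside 9.87% of all genes called. Cybrd1, a ferric reductase of the plasma membrane, averaged 103 ± 10.2 CPM in AT2 Etv5KO and 36.5 ± 6.96 CPM in AT2 control libraries (SD, n = 5 and 4; log2 fold change 1.51, SE 0.13, edgeR adjusted p = 2.5e-05). In lung it stood at 36.3 ± 6.96 CPM in Etv5KO and 24.0 ± 4.11 CPM in control libraries (SD, n = 5 each; edgeR adjusted p = 0.181), and its effect in AT2 cells exceeded that in lung by 0.91 (SE 0.20, edgeR adjusted p = 0.0207). That difference was lost without AT2 control library 3 (adjusted p = 0.0516). Lrp2, a large endocytic receptor, rose by 0.61 (SE 0.11), and its call was lost with all libraries in one fit (adjusted p = 0.0519). Slc39a8, a metal importer, fell by 0.65 (SE 0.10) and Slc22a17, a lipocalin 2 receptor, fell by 0.60 (SE 0.07), all on the log2 scale.

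Of 3 carriers tested, Hp, the haemoglobin-binding haptoglobin, rose, averaging 2224 ± 357 CPM in AT2 Etv5KO and 1407 ± 293 CPM in AT2 control libraries (SD, n = 5 and 4; log2 fold change 0.67, SE 0.16, edgeR adjusted p = 0.0235). Its call was lost without AT2 Etv5KO library 1, 4 or 5 or AT2 control library 4, with adjusted p up to 0.0564. In the export role 1 gene was tested, Heph, the ferroxidase hephaestin. It averaged 2.45 ± 0.405 CPM in AT2 Etv5KO and 3.71 ± 0.290 CPM in AT2 control libraries (SD, n = 5 and 4; log2 fold change -0.59, SE 0.15, edgeR adjusted p = 0.0284). This call was lost under library size scaling, without the filter, or without AT2 Etv5KO library 1, 3 or 5 or AT2 control library 3 or 4, with adjusted p up to 0.0933. None of 5 storage and 11 sensing genes tested passed, beside 9.87% of all genes. Nothing about a role is read from counts this small.

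Of 20 mitochondrial iron and iron-sulfur genes tested in AT2 cells 1 was called, beside 9.87% of all genes. It was Isca2, an assembly factor of iron-sulfur clusters, which rose by 0.52 on the log2 scale (SE 0.12, edgeR adjusted p = 0.0173). Of 18 heme genes tested, 2 rose and 2 fell, beside the same share. Alad, an early enzyme of heme synthesis, rose by 0.40 (SE 0.07) and Flvcr2, a transporter of the FLVCR family, rose by 0.95 (SE 0.20), at 16.1 ± 5.22 CPM in AT2 Etv5KO and 8.35 ± 0.877 CPM in AT2 control libraries (SD, n = 5 and 4). Hmox1, the heme-degrading oxygenase, fell by 0.40 (SE 0.09), and Flvcr1, a transporter linked to heme export, fell by 0.31 (SE 0.07). The Hmox1 call was lost without AT2 control library 1 (adjusted p = 0.0717) or 3, and that of Flvcr1 without AT2 control library 1 (adjusted p = 0.0605) or with scaling by library size alone (adjusted p = 0.0735).

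**Figure D4:**
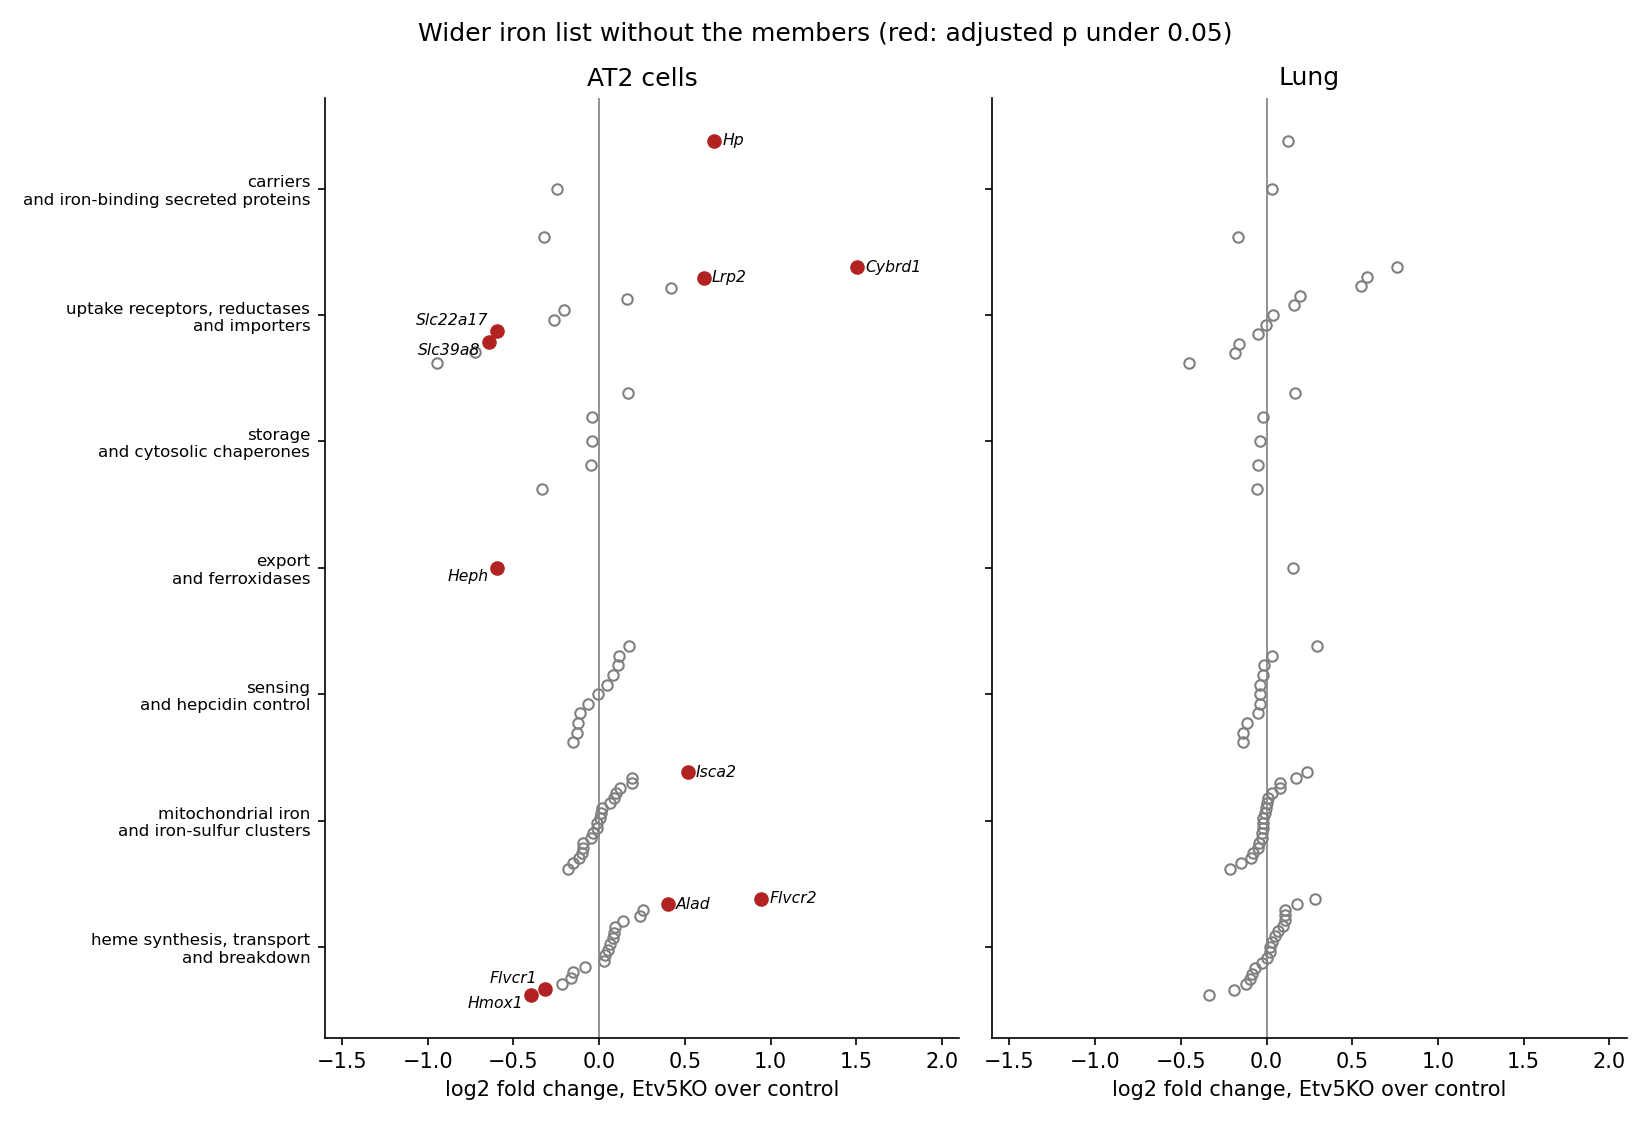
Log2 fold change of Etv5KO over control for the genes of the wider iron list that passed the filter, by role (vertical axis), in AT2 cells and in lung, with genes past an adjusted p of 0.05 in red. Cybrd1 stands farthest to the right in AT2 cells at 1.51, and no gene is red in lung.

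Some cell markers also differed between the AT2 libraries. The share called was 50% of AT1, 42.9% of airway secretory and 30% of AT2 markers, beside 9.87% of all genes tested. In each other list at most 1 marker was called. AT1 markers summed to 3681 to 4111 CPM over 8 genes in AT2 Etv5KO and 2650 to 3477 CPM in AT2 control libraries, 3 rising and 1 falling, and 7 airway secretory markers summed to 632 to 965 CPM in AT2 Etv5KO and 322 to 742 CPM in AT2 control libraries, 3 rising. Of 10 AT2 markers 3 fell. Endothelial markers summed to 89.1 to 145 CPM in AT2 Etv5KO and 83.1 to 126 CPM in AT2 control libraries, and 1 of 8 was called. Mesenchymal markers summed to 53.7 to 99.0 CPM in AT2 Etv5KO and 43.6 to 71.9 CPM in AT2 control libraries, and 0 of 7 were called. Of the macrophage markers 1 of 10 was called, and of the neutrophil markers 0 of 6. Red cell markers summed to at most 1.32 CPM in AT2 Etv5KO and 1.30 CPM in AT2 control libraries. Their part in the results above was not tested.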

How the data were processed

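RNA-seq tables of 19 mouse libraries were analysed. Per the file headers, counts are uniquely aligned reads per gene model, and the authors also deposited an RPKM adjusted by a size factor for each sample. GSNAP and mm9 are named in the submitters' processing notes. The counting tool, the annotation and strand use are likewise not given in the sources used. Of 36528 gene IDs, 31049 were named from RefSeq (GRCm38.p6), holding 98.7% of counts.

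Each comparison was fitted on the counts with edgeR 4.0.16 in R 4.3.3: filterByExpr (minimum count 10, minimum total 15), TMM scaling, the two-sided quasi-likelihood test and Benjamini-Hochberg adjustment over all genes tested, threshold 0.05. AT2 cells and lung were fitted separately, and the difference of the effects was an interaction over all libraries. Standard errors come from the F statistic. Alternatives were RLE scaling, library size alone, no filter, DESeq2 1.42.0, limma-voom (limma 3.58.1), all libraries in one fit and leaving out each library. The fits were tested on simulated data.

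The members and lists were chosen with earlier results of these data known. Named were all members, every gene of the wider iron list past the threshold when 12 or fewer, the 5 genes most like Trf and 3 most like Lcn2 among genes of at least 5 CPM in a group, and the neighbours of Trf. Libraries are numbered in accession order. No replicates were duplicates (chi-square per degree of freedom 7.81 to 61.8). Nothing says which libraries share a mouse or were separate preparations beyond the mice named per genotype, so p-values measure the spread between these samples. Ahsp, a red cell marker, was not matched.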

Additional observations from a re-analysis of the deposited data

Results flagged for a closer look

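Among 84 groups of 4 or 5 libraries checked over the members and the named iron genes, 3 held a library that stood apart from the others by Dixon's criterion, where chance flags about 1 in 20. Trf was lowest in a lung Etv5KO library at 326 CPM, with the next at 373 CPM. Isca2 was lowest in an AT2 control library at 9.55 CPM. Slc39a8 was highest in a lung control library at 321 CPM.

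The effect of Etv5KO differed between AT2 cells and lung, by the interaction term, for Cybrd1 and Heph. The effect in AT2 cells minus that in lung was 0.91 on the log2 scale for Cybrd1 and -0.76 for Heph (edgeR adjusted p = 0.0207 and 0.0273). For Trf it was -3.47, which is a description because it holds the AT2 libraries that chose the set.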

How the results depend on the processing

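In AT2 cells the count of iron genes called was 11, against 9 to 11 when single libraries were left out. In lung the genes called numbered 71, against 197 with DESeq2, 122 with all libraries in one fit and 44 to 80 when single libraries were left out, and the members called numbered 0 to 2 when single libraries were left out. The iron list in lung gave 2 with DESeq2, 1 with all libraries in one fit and 0 to 1 when single libraries were left out. The interaction called 467 genes with DESeq2, against 282. The interaction call for Heph was lost with limma-voom (adjusted p = 0.129) and without AT2 Etv5KO library 1, 3 or 5 or AT2 control library 3 or 4.

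Some values changed sign, none of them called in the test as reported. Fth1 turned to 0.0033 in lung, -0.33 between control tissues and -0.23 between Etv5KO tissues with library size alone, the last 2 past the threshold. Slc40a1 in lung turned to 0.012 with library size alone, 0.0068 without the filter and 0.0034 with all libraries in one fit. When single libraries were left out, log2 fold changes in AT2 cells ran from -0.059 to 0.11 for Fth1, -0.0046 to 0.042 for Slc11a2 and -0.080 to 0.22 for Steap3. In lung they ran from -0.033 to 0.012 for Fth1, -0.031 to 0.063 for Slc40a1 and -0.058 to 0.29 for Ltf, and the interaction of Steap2 from -0.056 to 0.24. The cause was not tested. Few counts stand behind Ltf and Slc40a1 in AT2 cells, but their sign changes listed here were in lung. There their log2 fold changes were small beside their errors, 0.13 (SE 0.27) for Ltf and -0.0023 (SE 0.08) for Slc40a1. No paired analysis was possible because the labels give no replicate numbers and do not tie AT2 and lung libraries to mice.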
